A study of Rattus norvegicus with 36 samples.

Results

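Matrix metalloproteinases (MMPs) and one of their inhibitors, Timp1, were followed in the lungs of rats that had received DQ-12, a crystalline silica dust. The 10 genes were Mmp12, Mmp7, Mmp9, Mmp14, Mmp19, Mmp8, Mmp2, Mmp3, Mmp10 and Timp1, all of them found by name among the 25597 gene names on the array. The 36 rats were 13-week-old female Sprague Dawley rats, all anesthetized and instilled once through the trachea, either with 10 mg of DQ-12 per rat in sterile saline or with the saline alone (vehicle). RNA came from the accessory lobe 1, 30 or 180 days later (D1, D30, D180), with 6 rats per treatment and time point and 1 Agilent single-color array per rat. The values describe whole lung tissue, in which more cells of a type and more RNA per cell cannot be told apart.

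MMPs are zinc-dependent enzymes that cut proteins of the extracellular matrix and many secreted or membrane-bound proteins. Most are released as inactive proenzymes, while a few, such as Mmp14, stay anchored in the membrane. Tissue inhibitors of metalloproteinases (TIMPs) bind the active site and block it, so that the balance of both groups sets the capacity of a tissue to degrade matrix. RNA levels, as measured here, do not report on activation or inhibition of the proteins.

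In the RefSeq annotation of rat assembly GRCr8, 5 of the 10 genes lie on chromosome 8 within 274 kb, namely Mmp12 (12866652 to 12876554), Mmp3 (12925267 to 12938828), Mmp10 (12974707 to 12982613), Mmp8 (13008873 to 13018729) and Mmp7 (13133043 to 13140761). The other genes are spread over chromosomes 3 (Mmp9), 7 (Mmp19), 15 (Mmp14), 19 (Mmp2) and X (Timp1). Promoter sequences from RefSeq (GRCr8) were at hand for 6 of the 10 genes, and 4 of those are shown. They set Mmp12 and Mmp7, the pair with the largest rises below, against Mmp3 and Mmp10 of the same stretch, which did not pass the test. Each sequence holds the 120 bases before the transcription start, 5′ to 3′ on the plus strand, with matches to TGANTCA and TATAAA in capitals. The start used for Mmp3 lies slightly inside the gene as annotated.
Mmp12, chr8:12866532-12866651: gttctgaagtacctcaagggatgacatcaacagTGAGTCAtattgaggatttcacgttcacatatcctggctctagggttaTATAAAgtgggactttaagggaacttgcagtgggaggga
Mmp7, chr8:13132923-13133042: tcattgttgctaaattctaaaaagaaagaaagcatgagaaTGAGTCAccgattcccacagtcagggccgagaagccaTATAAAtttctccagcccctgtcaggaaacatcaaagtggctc
Mmp3, chr8:12925161-12925280: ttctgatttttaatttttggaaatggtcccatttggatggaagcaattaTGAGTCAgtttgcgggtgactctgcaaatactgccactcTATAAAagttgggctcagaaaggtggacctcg
Mmp10, chr8:12974587-12974706: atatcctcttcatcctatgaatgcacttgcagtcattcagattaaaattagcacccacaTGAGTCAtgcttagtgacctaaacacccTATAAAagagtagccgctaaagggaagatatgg

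TGANTCA, the motif known for AP-1 transcription factors, reads the same on both strands. It began 87 bases before the start in Mmp12, 80 in Mmp7, 71 in Mmp3 and 61 in Mmp10, and it was present in 3.01% of 33469 promoter windows of this length. TATAAA, searched on both strands, followed it in all 4 windows and was found in 6.66% of all windows. The window of Mmp8 held TATAAA on the minus strand alone, and that of Timp1 held neither motif. Both motifs were thus present for Mmp12 and Mmp7, which rose. They were also present for Mmp3 and Mmp10, which were at or near background and did not pass the test. Timp1, which was called higher at D1, had neither. The part of these motifs in the changes was not tested.

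All arrays were of lung character, with at least 7 of 8 lung epithelium markers well above background on every array of each group. Between 51.3 and 75.5% of probes were well above background per array, and replicate arrays correlated with r of 0.955 to 0.989. The number of arrays limits the precision. The array headers gave 19 slides and 11 scan dates, and each slide or date held a single time point. At D1, only 1 vehicle array shared a scan date with the 6 DQ-12 arrays. Both scan dates of D30 held both groups, and so did 2 of the 6 dates of D180 (4 arrays per group). A pair of arrays stood furthest apart through skeletal muscle genes (Myh1, Acta1, Ckm and Tnnt3), while heart muscle genes did not stand apart. The mean log2 intensity of 8 muscle markers was 10.42 in DQ-12 rat 5 at D1 (8.5 to 9.14 in the other DQ-12 rats) and 10.81 in vehicle rat 5 at D180 (8.33 to 9.0 in the other vehicle rats). DQ-12 rat 6 at D30 was also higher, at 9.55 (8.31 to 8.64 in the other DQ-12 rats of D30). At D1, Myh1 was called higher after DQ-12 (3.14, adjusted p = 0.0385, limma). It was well above background in 5 of 6 DQ-12 rats and 0 of 6 vehicle rats, so it was not confined to rat 5. Leaving out any of these rats in turn (rat 5 at D1 or D180, rat 6 at D30) changed no call of the 10 genes at its time point.

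A gene was called where the fold change reached 2 and the adjusted p was under 0.05 in limma, fitted to the 36 arrays together, with Benjamini–Hochberg adjustment over 23721 genes. At D1, 3 of the 10 genes (Mmp12, Mmp7 and Timp1) were called higher after DQ-12, against 2.04% of all genes tested. At D30, 2 genes (Mmp12 and Mmp7) were called higher, against 0.923% of all genes. At D180, 4 genes (Mmp12, Mmp7, Mmp9 and Mmp14) were called higher, against 2.89%. None of the 10 genes was called lower at any time point (0 also at an unadjusted p under 0.05, limma), where 1.07, 0.135 and 0.780% of all genes were. Mmp12 and Mmp7 were called higher at all 3 time points, as were 89 of the 23721 genes (0.375%). At D1, D30 and D180 the median log2 change was 0.48, 0.46 and 0.74 over the 10 genes and −0.01, −0.02 and −0.03 over all genes.

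The change was also compared between time points. It was called smaller at D30 than at D1 for 1 of the 10 genes (Timp1), against 0.565% of all genes in that direction. It was called larger at D180 than at D1 for 2 genes (Mmp12 and Mmp14), against 1.18%. Between D30 and D180 it was called different for 0 genes by limma, against 0.135% of all genes in either direction, although 2 of the 10 genes (Mmp12 and Mmp14) had an unadjusted p under 0.05.

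**Figure D1:**
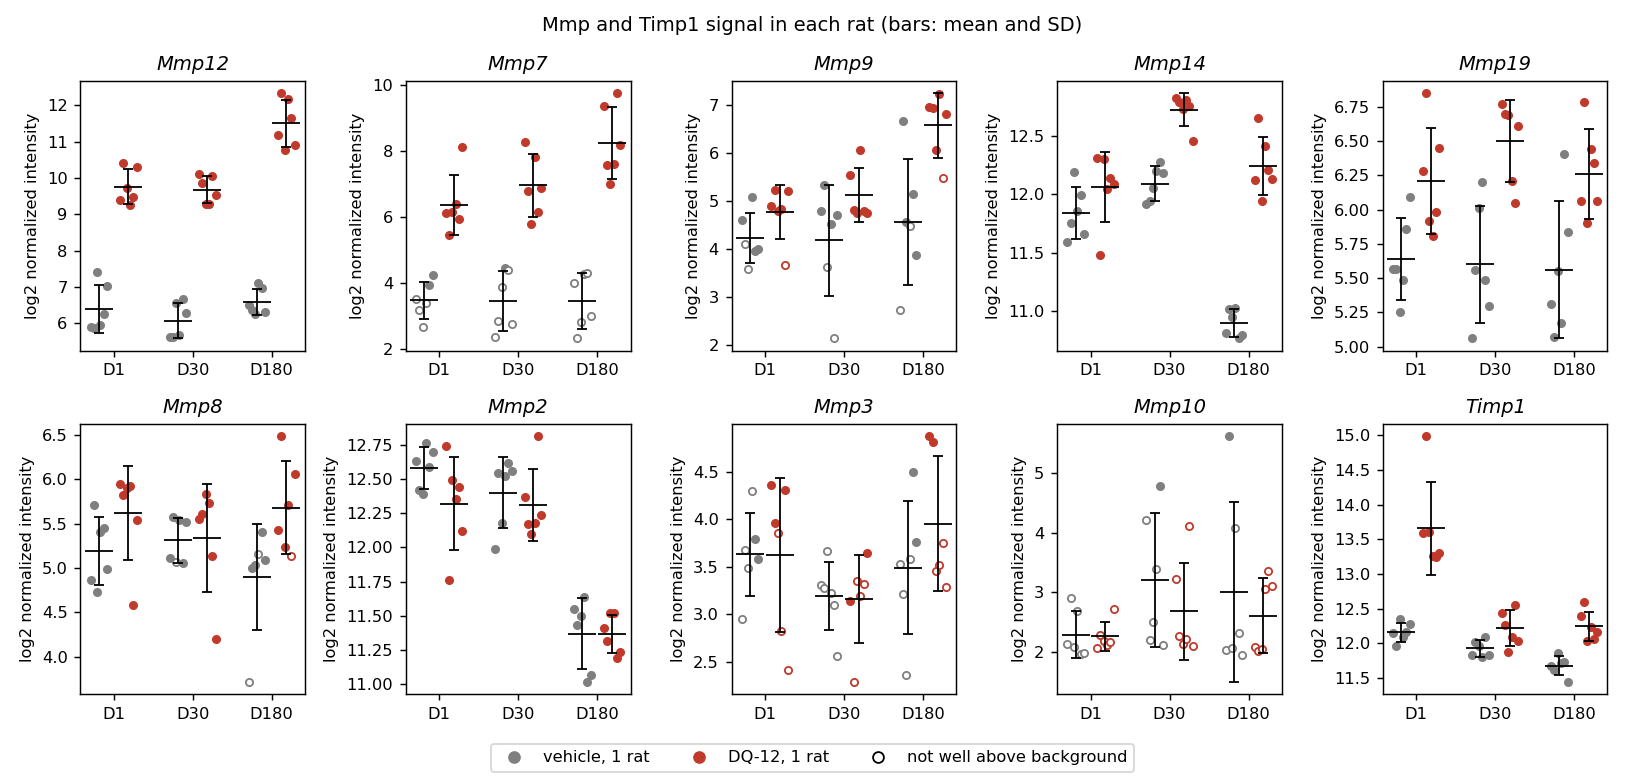
Log2 normalized intensity (vertical axis of each panel) of the 10 genes in each of the 36 rats at D1, D30 and D180 (horizontal axis), with vehicle rats in gray and DQ-12 rats in red. Bars give the mean and SD of 6 rats, and open points were not well above background. The groups did not overlap at any time point for Mmp12 and Mmp7, and axes differ between panels.

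Mmp12 encodes macrophage elastase, which degrades elastin and is made mainly by macrophages. In vehicle rats, its log2 intensity ranged from 5.87 to 7.41 (median 6.10) at D1, from 5.61 to 6.67 (median 5.98) at D30 and from 6.26 to 7.11 (median 6.43) at D180. In DQ-12 rats, it ranged from 9.25 to 10.41 (median 9.60), from 9.27 to 10.11 (median 9.70) and from 10.78 to 12.33 (median 11.41). Every DQ-12 rat thus lay above every vehicle rat at each time point, and vehicle rats stayed at a similar level over the 180 days. Mmp12 rose by a log2 change of 3.36 at D1 (SE 0.29, 10.2-fold, adjusted p = 4.98e-10), 3.61 at D30 (SE 0.29, 12.2-fold, adjusted p = 2.84e-10) and 4.91 at D180 (SE 0.29, 30.1-fold, adjusted p = 1.54e-13). The exact permutation test gave p = 0.00216 (2-sided) each time, the smallest that the 462 splits of 12 rats allow. The log2 change was larger at D180 than at D1 by 1.56 (SE 0.41, limma interaction, adjusted p = 0.0230), whereas the differences of 0.26 between D1 and D30 (adjusted p = 0.819) and of 1.30 between D30 and D180 (adjusted p = 0.176) did not pass. Within shared scan dates, the log2 difference was 2.35 at D1 (1 vehicle and 6 DQ-12 rats), 4.00 and 3.49 at D30, and 4.81 and 5.27 at D180. Within shared slides it was 2.34 at D1, 2.92 to 4.14 at D30 and 4.07 at D180. The larger change at D180 than at D1 no longer passed with slide (1.73, adjusted p = 0.589) or scan date (2.58, adjusted p = 0.0552) as a fixed block.

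Mmp7 encodes matrilysin, a small secreted MMP that epithelial cells make. It was at or near background in vehicle rats, where it was well above background in 2, 1 and 0 of 6 rats at D1, D30 and D180, and was well above background in all 18 DQ-12 rats. Vehicle rats ranged from 2.68 to 4.24 (median 3.45) at D1, from 2.36 to 4.45 (median 3.38) at D30 and from 2.33 to 4.31 (median 3.51) at D180. DQ-12 rats ranged from 5.45 to 8.13 (median 6.14), from 5.80 to 8.28 (median 6.83) and from 7.01 to 9.75 (median 7.90). DQ-12 and vehicle rats did not overlap at any time point, although DQ-12 rats differed more among themselves than for Mmp12 (SD 0.92, 0.95 and 1.09 for Mmp7, and 0.48, 0.37 and 0.65 for Mmp12). Mmp7 rose by a log2 change of 2.87 at D1 (SE 0.5, adjusted p = 1.10e-04) and 3.50 at D30 (SE 0.5, adjusted p = 2.39e-05, limma). At D180 the fitted log2 change was 4.79 (SE 0.5, interval 3.77 to 5.81, adjusted p = 1.57e-08, limma). Since no vehicle array was well above background, an estimate of 20.9-fold is given in place of the fitted fold. This estimate sets the DQ-12 mean against the lowest signal well above background on each vehicle array. Where the own signal of Mmp7 was higher, that signal was used. The estimate carries no allowance for the spread between rats and is not a lower limit of the change. The change at D180 exceeded that at D1 by 1.92 on the log2 scale (SE 0.71), which did not pass the test (limma interaction, adjusted p = 0.117). Within shared scan dates, the log2 difference was 3.69 at D1, 3.06 and 2.94 at D30, and 4.28 and 7.41 at D180. The call at D1 was lost with scan date as a fixed block (3.69, adjusted p = 0.0606) and with normexp background correction (0.94, adjusted p = 0.0141), which falls below the 2-fold threshold. With normexp background correction, the change of Mmp7 was also smaller at D30 (1.24, adjusted p = 0.00465) and at D180 (2.23, adjusted p = 1.41e-07), and both calls held.

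The rises of Mmp12 and Mmp7 stood beside those of macrophage markers at D30 and D180. Of 10 macrophage markers, 0 were called higher at D1 (4 at an unadjusted p under 0.05, limma), 5 at D30 and 5 at D180. Others of them went down. Cd163 was lower by the adjusted p alone at D180 (−0.89, adjusted p = 0.00190, limma). Mrc1 at D1 (−0.46) and Csf1r at D30 (−0.63) were lower at an unadjusted p under 0.05. The mean log2 intensity of the 10 markers per rat was 7.84 to 8.14 in vehicle and 8.21 to 8.35 in DQ-12 rats at D1, 7.64 to 7.93 and 8.19 to 8.81 at D30, and 7.97 to 8.45 and 8.82 to 9.19 at D180. Marco was the 1 marker that had a group with 0 arrays well above background, namely DQ-12 at D1 and vehicle at D30. Of 8 lung epithelium markers, none was called at any time point (limma, with 4, 3 and 3 at an unadjusted p under 0.05), and their mean was 14.61 to 14.98 over all rats. That mean includes Sftpc, which was at 18.42 in every vehicle rat. By the adjusted p alone, Sftpa1 was higher at D1, D30 and D180 (0.48, 0.49 and 0.47). Sftpb was lower at D1 (−0.18), and Ager (−0.42) and Hopx (−0.47) were lower at D180. Of 8 lymphoid markers, 1 was called higher at D30 and at D180 (Jchain, named after its values were seen). The part of cell numbers in the rises of Mmp12 and Mmp7 was not tested.

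Timp1, which inhibits most secreted MMPs, rose early. Vehicle rats had log2 intensities of 11.96 to 12.35 (median 12.16) at D1, 11.81 to 12.10 (median 11.91) at D30 and 11.45 to 11.86 (median 11.70) at D180. DQ-12 rats had 13.24 to 14.98 (median 13.45), 11.88 to 12.56 (median 12.19) and 12.03 to 12.60 (median 12.20). The groups were apart at D1 and again at D180, and overlapped at D30. The log2 change was 1.5 at D1 (SE 0.18, 2.83-fold, adjusted p = 3.81e-07, limma), 0.29 at D30 (SE 0.18, adjusted p = 0.487) and 0.57 at D180 (SE 0.18, 1.49-fold, adjusted p = 0.0260, below the 2-fold threshold). The exact permutation test gave p = 0.00216 at D1 and at D180 and p = 0.0303 at D30. The change was smaller at D30 than at D1 by a log2 difference of −1.21 (SE 0.26, limma interaction, adjusted p = 0.00779), and smaller at D180 than at D1 by −0.93 (SE 0.26, adjusted p = 0.0310). DQ-12 rat 2 had by far the highest value at D1 (14.98, next 13.61). Without this rat the change at D1 was 1.24 (adjusted p = 2.39e-09) and the difference between D30 and D1 was −0.95 (adjusted p = 5.73e-04), which is under 2-fold.

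Within the scan date that held 1 vehicle and 6 DQ-12 arrays, Timp1 was higher by 1.32 at D1, and within the shared slide by 1.51. With scan date or slide as a fixed block, the same values had adjusted p = 0.0894 and 0.0822, and the difference between D30 and D1 was −0.93 (adjusted p = 0.723) and −1.17 (adjusted p = 0.50).

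**Figure D2:**
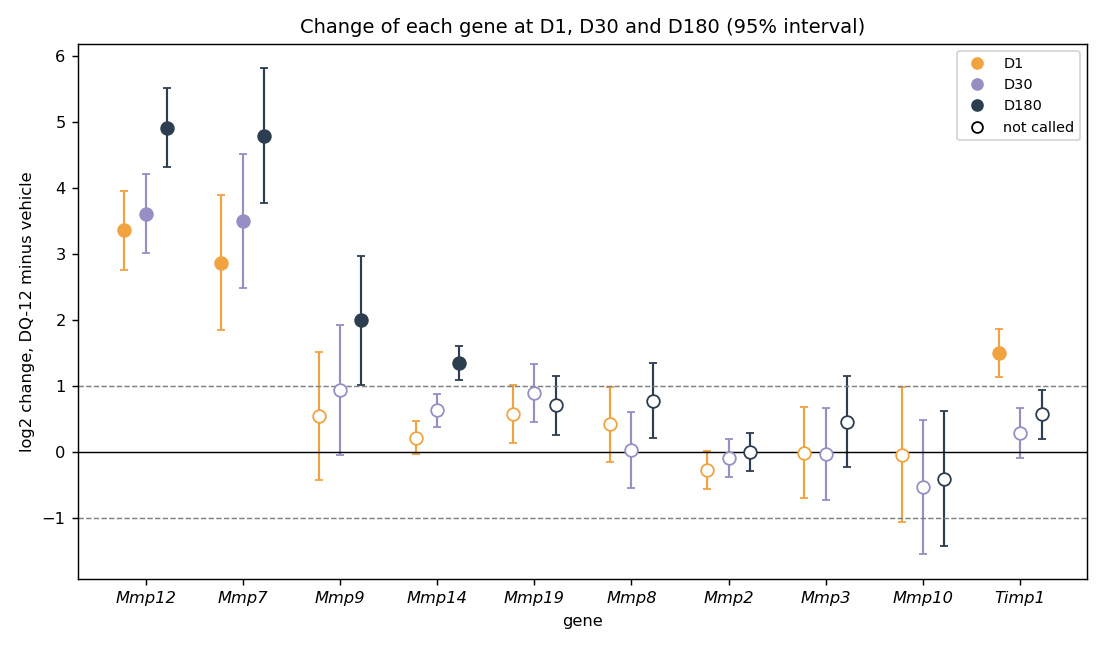
Log2 change (DQ-12 minus vehicle, vertical axis) of the 10 genes (horizontal axis) at D1, D30 and D180, with 95% intervals from limma. Filled points were called (at least 2-fold, adjusted p under 0.05) and dashed lines mark 2-fold. Mmp12 and Mmp7 were called at all 3 time points, Timp1 at D1, and Mmp9 and Mmp14 at D180.

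Mmp14, the membrane-anchored MMP that cuts collagen and activates the proenzyme of Mmp2, differed more between groups at D180 than at D1. Log2 intensities in vehicle rats were 11.59 to 12.19 (median 11.80) at D1, 11.92 to 12.27 (median 12.12) at D30 and 10.77 to 11.03 (median 10.89) at D180. Those in DQ-12 rats were 11.48 to 12.31 (median 12.11), 12.45 to 12.82 (median 12.77) and 11.94 to 12.65 (median 12.17). The groups overlapped at D1 and were apart at D30 and D180. The log2 change was 0.22 at D1 (SE 0.12, adjusted p = 0.234, limma), 0.63 at D30 (SE 0.12, 1.55-fold, adjusted p = 0.00151) and 1.35 at D180 (SE 0.12, 2.54-fold, adjusted p = 1.09e-09). It was larger at D180 than at D1 by 1.12 (SE 0.17, limma interaction, adjusted p = 1.59e-04). The differences of 0.41 between D30 and D1 (adjusted p = 0.230) and of 0.71 between D180 and D30 (adjusted p = 0.0619) did not pass. With slide as a fixed block, the difference between D180 and D1 was 1.23 and no longer passed (adjusted p = 0.232).

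The vehicle mean of Mmp14 was 11.84 ± 0.22 at D1, 12.09 ± 0.15 at D30 and 10.90 ± 0.12 at D180 (SD, n = 6), whereas the DQ-12 mean was 12.06 ± 0.30, 12.72 ± 0.14 and 12.24 ± 0.25. Vehicle rats thus had their lowest mean at D180, and DQ-12 rats their highest at D30. Mmp2 was also lower at D180, with a vehicle mean of 12.40 ± 0.26 at D30 and 11.37 ± 0.26 at D180. Since each slide and scan date held 1 time point, age and array batch cannot be told apart in these levels. Both probes of Mmp14 gave similar log2 changes, 1.35 and 1.38 at D180. Within shared scan dates the log2 difference was −0.13 at D1, 0.67 and 0.59 at D30, and 1.30 and 1.18 at D180. With slide as a fixed block, which compares the groups at D180 through 1 array of each, the change was 1.09 (adjusted p = 0.0833).

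**Figure D3:**
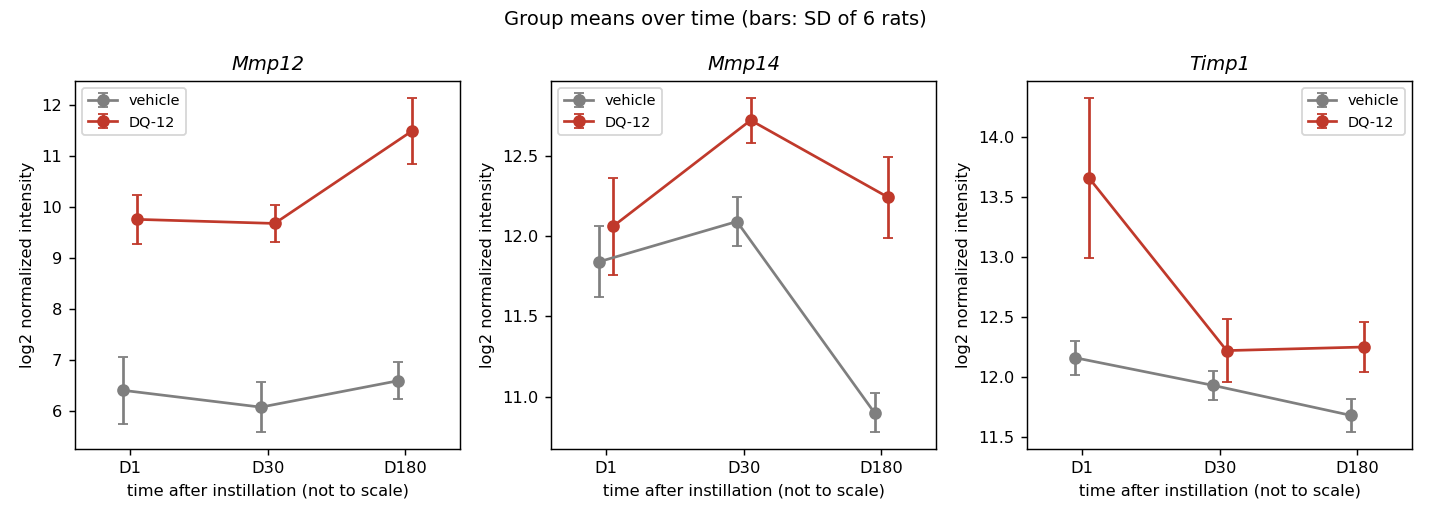
Mean log2 normalized intensity (vertical axis, bars are the SD of 6 rats) of Mmp12, Mmp14 and Timp1 in vehicle (gray) and DQ-12 (red) rats at D1, D30 and D180 (horizontal axis, not to scale). Mmp12 differed most at D180 through its level in DQ-12 rats, Timp1 at D1, and Mmp14 at D180, where the vehicle mean was 10.90.

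Mmp9 and Mmp8 are known as the gelatinase and the collagenase stored in granules of neutrophils, and Mmp9 is also made by macrophages. At D180, Mmp9 spanned 2.74 to 6.66 in vehicle rats (median 4.51) and 5.47 to 7.22 after DQ-12 (median 6.86). Vehicle rat 2, at 6.66, lay within the DQ-12 range, and 4 of the 6 values after DQ-12 exceeded every vehicle value. Mmp9 rose by a log2 change of 2.00 at D180 (SE 0.48, 3.99-fold, adjusted p = 0.00283, limma), with 0.54 at D1 (adjusted p = 0.494) and 0.94 at D30 (adjusted p = 0.341). These time points were not shown to differ, with the largest difference of 1.45 between D180 and D1 (SE 0.68, limma interaction, adjusted p = 0.229). Mmp9 was dim, with 4 of 6 vehicle arrays well above background at each time point and 5, 6 and 5 DQ-12 arrays. The call at D180 was lost with slide (2.48, adjusted p = 0.393) or scan date (1.74, adjusted p = 0.0655) as a fixed block and with normexp background correction (0.78). Within the 2 shared scan dates at D180, the log2 difference was 2.72 (3 rats of each group) and −1.19 (1 rat of each group).

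Mmp8 passed no adjusted p. Its log2 change was 0.42 at D1 (95% interval −0.15 to 0.99), 0.03 at D30 (−0.54 to 0.60) and 0.78 at D180 (0.21 to 1.35, adjusted p = 0.0533, limma). Of 10 neutrophil markers, 1, 2 and 4 were called higher at D1, D30 and D180. Fpr1, another of them, was lower by the adjusted p alone at D30 (−0.95, adjusted p = 0.00238) and at D180 (−0.57, adjusted p = 0.0363). The mean log2 intensity of the markers per rat was 7.23 to 7.70 in vehicle and 7.55 to 8.05 in DQ-12 rats at D1, 7.27 to 7.87 and 7.65 to 8.30 at D30, and 7.37 to 8.0 and 8.25 to 8.76 at D180, and Ltf, one of the markers, was well above background on 0 arrays of both groups. The part of neutrophil numbers in the values of Mmp9 and Mmp8 was not tested.

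Mmp19, a secreted MMP of macrophages and vessel walls among other sites, rose by less than 2-fold. Its log2 intensity at D30 spanned 5.06 to 6.20 in vehicle rats (median 5.52) and 6.05 to 6.77 after DQ-12 (median 6.65), so that 5 of the 6 values after DQ-12 exceeded every vehicle value. The log2 change was 0.58 at D1 (SE 0.22, adjusted p = 0.0644, limma), 0.90 at D30 (SE 0.22, adjusted p = 0.0118) and 0.71 at D180 (SE 0.22, adjusted p = 0.0202). The adjusted p alone was thus passed by 3 of the 10 genes at D1, 4 at D30 (with Mmp14 and Mmp19) and 6 at D180 (with Mmp19 and Timp1), all higher, where 7.70, 2.78 and 7.93% of all genes passed in that direction. Over 25 alternatives, the change of Mmp19 was 0.44 to 1.02 at D30 and 0.33 to 1.00 at D180. That of Timp1 at D180 was 0.50 to 0.67. Neither gene passed the adjusted p at these time points in every alternative. Groups did not overlap, with DQ-12 higher, for 3 genes at D1, 3 at D30 and 4 at D180, where 5.28, 1.83 and 3.89% of all genes did so.

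Mmp2, the gelatinase of fibroblasts and other stromal cells, was bright on every array and passed no test. Its log2 change was −0.27 at D1 (95% interval −0.56 to 0.02), −0.09 at D30 (−0.38 to 0.20) and −0.00 at D180 (−0.29 to 0.29), so that a change of 2-fold lay outside each interval. A second, dimmer probe of Mmp2 gave 0.12, −0.32 and 0.01, with the other sign at D1.

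The stromelysins Mmp3 and Mmp10, which cut many matrix proteins and activate other MMPs, were at or near background. Mmp3 was well above background on at most 3 of 6 arrays of any group, with log2 changes of −0.01, −0.03 and 0.46 (95% interval at D180 −0.23 to 1.15). A second probe of Mmp3 was well above background on 0 of 36 arrays. Mmp10 was well above background on 2 of 36 arrays, both of vehicle rats, at 4.79 (D30) and 5.62 (D180), with log2 changes of −0.04, −0.53 and −0.40. A change of these 2 genes below the background was not detectable.

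No rat was high or low for all 10 genes. At D180, DQ-12 rat 2 was the highest of its group for 5 genes (Mmp12, Mmp8, Mmp14, Mmp19 and Timp1) and rat 3 the lowest for 5 (Mmp12, Mmp7, Mmp14, Mmp19 and Timp1). At D1, DQ-12 rat 5, the rat with the highest mean of the muscle markers, was the lowest for Mmp8, Mmp9 and Timp1. At D30, DQ-12 rat 6, the highest for these markers there, was the lowest for Mmp8, Mmp9, Mmp10 and Mmp14. The part of muscle RNA in these values was not tested. As a description over the 36 arrays, which share the 6 groups, the genes with the pattern closest to Mmp12 were Ccl7 (root mean square difference 0.53 on the log2 scale after centering each gene), Slc26a4 (0.56), Ccl2 (0.61), Gsg1 (0.68) and LOC102551003 (0.73), where the SD of Mmp12 was 2.16. Those closest to Timp1 were Chtf18 (0.32), Mcm2 (0.33), Mcm6 (0.33), Cenpn (0.33) and Tubb6 (0.34), where the SD of Timp1 was 0.71. Among the 10 genes, Mmp12 and Mmp7 differed by 0.90 and Mmp14 and Mmp19 by 0.55. These differences are not scaled to the spread of each gene, so the pairs cannot be ranked by them.

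Related genes were taken from lists of the pathway. Of 15 other MMP genes, 13 were on the array and 11 were tested, with Mmp28 called higher at D1 (log2 change 1.12, SE 0.37, adjusted p = 0.0360, limma) and none called at D30 or D180 (0 and 4 at an unadjusted p under 0.05). The call of Mmp28 held in 10 of 25 alternatives, and was lost without vehicle rat 1, 2, 4 or 6 or DQ-12 rat 1, 2, 3 or 5. At D180, 3 of the 11 (Mmp16, Mmp17 and Mmp24, named after their values were seen) were lower by the adjusted p alone, the lowest being Mmp17 at −0.88 (SE 0.15, adjusted p = 5.41e-05). Of all genes, 8.76, 1.26 and 9.12% were lower by the adjusted p alone at D1, D30 and D180. At D1, D30 and D180 the 11 genes had a median log2 change of −0.09, −0.01 and −0.34. Mmp13, a neighbor of Mmp12, had log2 changes of 0.34, −0.22 and 0.37 and did not pass.

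Of 7 other inhibitors, A2m, the broad protease trap alpha-2-macroglobulin, rose by 2.41 at D180 (SE 0.35, 5.31-fold, adjusted p = 4.93e-06, limma), with vehicle rats at 3.55 to 5.27 (median 4.16, 4 of 6 well above background) and DQ-12 rats at 5.68 to 7.09 (median 6.87). The call of A2m was lost with slide as a fixed block (2.30, adjusted p = 0.179), and with normexp background correction its change was 1.00 (adjusted p = 4.13e-06). Pzp was called higher at D180 as well, but was well above background on 0 of the 12 arrays, and no fold is given. The call of Pzp held in 20 of 24 alternatives, and was lost without DQ-12 rat 5. Timp3 and Reck, an inhibitor in the matrix and one on the cell membrane (both named after their values were seen), were lower by less than 2-fold. Timp3 changed by −0.93 at D1 (SE 0.14, adjusted p = 1.55e-05) and −0.69 at D180 (SE 0.14, adjusted p = 5.46e-04), and Reck by −0.69 at D180 (SE 0.11, adjusted p = 2.71e-05). Timp3 passed 2-fold at D1 without vehicle rat 3 or DQ-12 rat 1. Over 25 alternatives, its adjusted p was passed in 22 at D1 (changes of −1.02 to −0.12) and in 23 at D180 (−0.76 to −0.49). That of Reck at D180 was passed in 24 (−0.75 to −0.33). At D180, the mean log2 intensity of 8 fibroblast markers was 10.17 to 10.51 in vehicle and 9.75 to 10.16 in DQ-12 rats, with 2 of them (Postn and Pdgfrb) lower by the adjusted p alone. That of 4 mesothelium markers was 9.66 to 10.27 and 9.33 to 9.55, with 2 lower by the adjusted p alone (Upk3b and Krt19). At D1, the fibroblast markers spanned 10.57 to 10.93 and 10.65 to 11.03. Lum was called higher among them (1.05, adjusted p = 0.0121, limma). By the adjusted p alone, Acta2 was higher (0.53) and Tcf21 lower (−0.85). The mesothelium markers spanned 9.96 to 10.18 and 9.75 to 10.00 at D1, with Wt1 lower by the adjusted p alone (−0.74). The part of these cells in the values of Timp3 and Reck was not tested.

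Of 8 genes linked to the activation or induction of MMPs (Plau, Plaur, Plat, Plg, Furin, Bsg, Elane and Hpn), 1 was called, Plaur, the urokinase receptor, which rose by 1.04 at D180 (SE 0.21, adjusted p = 3.84e-04, limma). The call of Plaur held in 17 of 25 alternatives, and was lost without vehicle rat 1, 2 or 3 or DQ-12 rat 2 or 5. Bsg, a membrane protein that induces MMPs, was lower at D30 by the adjusted p alone (−0.76, SE 0.21, adjusted p = 0.0312). This held in 14 of 25 alternatives, with changes of −0.95 to −0.22. Of 13 proteins that MMPs cut, in the matrix or on the cell surface (Cdh1 and Sdc1), 1 was called, Tnc (tenascin C). It rose by 1.68 at D1 (SE 0.25, 3.21-fold, adjusted p = 1.52e-05) and had changes of 0.02 and −0.53 at D30 and D180. Its change was smaller at D30 and at D180 than at D1 by log2 differences of −1.66 (SE 0.36, limma interaction, adjusted p = 0.00913) and −2.21 (SE 0.36, adjusted p = 2.84e-04). With slide or scan date as a fixed block, Tnc was not called at D1. By the adjusted p alone, Fn1 (0.91) and Vcan (0.96) were higher at D1. At D180, Vcan was higher (0.85) and Col4a1 lower (−0.56) in the same way. These results held in 22 to 24 of 25 alternatives.

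**Figure D4:**
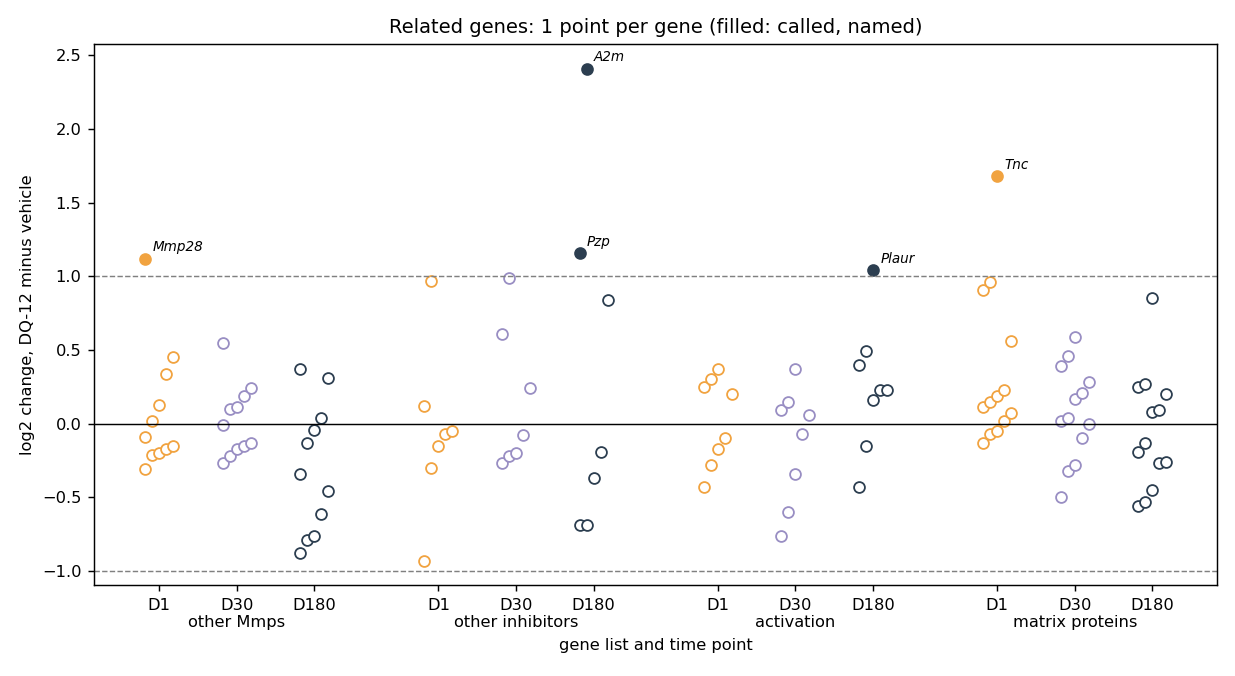
Log2 change (DQ-12 minus vehicle, vertical axis) of each tested gene of 4 lists (other MMPs, other inhibitors, activation, matrix proteins) at D1, D30 and D180 (horizontal axis). The list of matrix proteins also holds Cdh1 and Sdc1 of the cell surface. Filled points were called and are named, open points were not, and dashed lines mark 2-fold. Mmp28 and Tnc were called at D1, and A2m, Pzp and Plaur at D180, all higher.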

How the data were processed

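Gene expression was measured in 36 rat lung accessory lobes, 1 array per rat. The authors' Feature Extraction 12.0.1.1 files, as deposited, hold background-corrected spot intensity, and other columns (probe names, flags) were read from the deposited files too. The deposited log2 values match that intensity on the log2 scale after scaling each array by its 75th percentile and centering each probe on its median (r = 0.99997, median absolute difference 0.00177), and were used as an alternative. The medians of their columns were −0.152 to 0.227.

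From the intensity, outlier spots (232 to 596 per array) were left out, spots of a probe were averaged on the log2 scale, and probes above the 95th percentile of 308 negative controls on at least 6 arrays were quantile normalized. The probe with the highest mean signal represented each gene, which left 23721 genes with 206 missing values. All 10 genes and all of their 13 probes passed. No missing value was imputed.

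Groups were compared with limma 3.58.1 (6 group means, 2-sided, Benjamini–Hochberg adjustment over all genes per comparison). The study's methods name batch correction but no batch variable, so none entered the model. Alternatives changed the background correction, scaling, filter, probe rule, slide or scan date as a block, moderation, replicate block, threshold and each rat. Named by rule were the 10 genes, list genes called at any time and the 5 genes closest in pattern to Mmp12 and to Timp1. Other list genes and markers were named after their values were seen. The genes and lists were chosen with earlier results of these data known, and 1 list gene is not reported here. The fit was tested on simulated data. Fits ran in R 4.3.3 (statmod 1.5.0 for random blocks) and figures were drawn with matplotlib 3.10.9 (Python 3.11.15).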

Additional observations from a re-analysis of the deposited data

Results flagged for a closer look

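Dixon's test at its 95% critical value for 6 rats marked 1 rat far from the others of its group in 10 of 60 groups (10 genes in 6 groups), where chance marks about 1 in 20. The value tested is the gap to the nearest rat divided by the range of the group. Among DQ-12 rats at D1 it marked Timp1 (0.792, rat 2 at 14.98), Mmp9 (0.717, rat 5 at 3.67), Mmp8 (0.701, rat 5 at 4.58), Mmp7 (0.649, rat 6 at 8.13) and Mmp10 (0.646, rat 6 at 2.72). Mmp14 was marked in DQ-12 rats at D1 (0.676, rat 2 at 11.48) and at D30 (0.761, rat 6 at 12.45). Mmp2 (0.631, rat 5 at 12.81) and Mmp3 (0.632, rat 2 at 2.29) were marked in DQ-12 rats at D30. Mmp8 was the only gene marked in vehicle rats, at D180 (0.763, rat 1 at 3.72).

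DQ-12 rats thus held 9 of the 10 marked values, and 6 of them were at D1. Without rat 2, the change of Timp1 at D1 was 1.24 in place of 1.5.

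The change after DQ-12 differed between time points, by a limma interaction, for 3 of the 10 genes. It was larger at D180 than at D1 for Mmp12 (difference 1.56 on the log2 scale) and Mmp14 (1.12), and smaller at D30 than at D1 for Timp1 (−1.21).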

How the results depend on the processing

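Mmp12 was called at all 3 time points under every one of the 25 alternatives that applied to each, with log2 changes of 2.34 to 3.56 at D1, 2.56 to 3.73 at D30 and 4.04 to 5.06 at D180. No change that passed a test turned its sign. Of the changes of the 10 genes, 735 values kept their side of the thresholds, 8 lost a call (Mmp7, Mmp9, Mmp14 and Timp1) and 1 gained one (Mmp19 at D30 without vehicle rat 4, 1.02). With scan date as a fixed block, 1 gene was called at D1 (3 without the block) and 1 gene differed between D180 and D1 (2 without). With slide as a fixed block, 2 genes were called at D180 (4 without) and 0 differed between D180 and D1. The difference between D30 and D1, found for 1 gene, was found for 0 with slide or scan date as a fixed block and for 0 with scan date as a random block. At D1 these blocks compare the groups through 1 vehicle array. A fold threshold of 1.5 gave 4 genes at D30 in place of 2, and normexp background correction gave 1 gene that differed between D180 and D30 in place of 0. Normexp background correction was run with an offset of 50. With it, 213, 102 and 327 of all genes were called at D1, D30 and D180. Without it, 485, 219 and 686 were called higher alone.

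With each rat left out in turn, 3 genes were called at D1 in every case, 2 to 3 at D30 and 4 at D180, and 0 to 1 differed between D30 and D1 (0 without DQ-12 rat 2 of D1), 0 between D180 and D30, and 2 to 3 between D180 and D1. Replicate numbers did not pair the rats (correlation of deviations −0.13 to 0.22, above 0.1 in 6 of 18 pairs), and a replicate block left the counts at 3, 2, 4, 1, 0 and 2. Scaling by the 75th percentile shifted the median of all genes at D1 to −0.10, and the calls of the 10 genes stayed at 3, 2 and 4. Mmp3 and Mmp10 were not tested where probes had to be well above background, and signal over background limits both. The cause was not tested.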
